A study of Homo sapiens with 4 samples.

Results

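The genes described here carry glucose into cells and through glycolysis, and set where the resulting pyruvate goes. They were taken as a list of symbols from known roles and found by matching the Ensembl identifiers of the count table to gene names. The list was drawn up with earlier results of these data known, so its counts beside all genes are a description only. The list holds 10 genes: SLC2A1, SLC2A4, HK1, HK2, PFKM, PFKP, PKM, LDHA, LDHB and PDK4. The table holds 60234 genes, of which 55538 matched a name, and each of the 10 was found in it.

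The cells came from NKX2.5:GFP hESCs, an established human embryonic stem cell line that carries eGFP on an allele of the heart gene NKX2-5, and were differentiated toward the cardiac lineage as spin embryoid bodies. RNA was sequenced from 4 populations obtained by sorting, as 1 library each. RA cells came from cultures given retinoic acid at 1 uM from day 4 to day 7, and control (CTR) cells from cultures given the solvent DMSO over the same days. Both kinds of culture were sorted by fluorescence at day 31, according to the deposited description, into GFP+ and GFP- cells, which gave RA GFP+, RA GFP-, CTR GFP+ and CTR GFP- libraries. GFP marks cells that use the NKX2-5 locus, so the fractions are defined by this reporter alone and can each hold several cell types.

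Glucose enters cells through transporters of the SLC2A family, is trapped by hexokinases, is committed to glycolysis by phosphofructokinase and ends as pyruvate through pyruvate kinase. Lactate dehydrogenase interconverts pyruvate and lactate, while pyruvate dehydrogenase, which PDK enzymes switch off, feeds pyruvate into mitochondria. Fetal heart muscle relies strongly on glucose and lactate, and adult heart muscle burns mainly fatty acids.

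Read counts summed to 28643091 in the CTR GFP+ library, 28125727 in RA GFP+, 26222787 in RA GFP- and 4371101 in CTR GFP-. The CTR GFP- library was thus the shallowest, and the others were 6.55, 6.43 and 5.999 times as deep, in the same order. Levels are given as reads of a gene per 1000000 reads of the library (CPM), scaled between libraries by TMM, a method that sets the bulk of genes equal between libraries. Every CPM carries an exact Poisson 95% interval and every ratio of CPM a Clopper-Pearson 95% interval, given in parentheses. Both cover counting error only, since amplified reads are not independent molecules. Since each condition has 1 library, no replicate spread exists and no test was made, so no difference below was set against the variation between cultures.

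The 10 genes took 0.442% of all reads in CTR GFP+ cells and 0.381% in RA GFP+ cells. In GFP- cells they took 0.194% in CTR and 0.172% with RA. Their summed level was thus more than 2 times as high in the GFP+ fraction of each treatment, at 4419 against 1807 CPM in CTR and 4003 against 1754 CPM with RA. PKM was the most abundant of them in CPM in 3 libraries, and LDHB in RA GFP- cells, at 421 CPM. Genes of the mitochondrial genome also took a larger share of reads in GFP+ cells, 14.1% in CTR and 14.9% with RA, than in GFP- cells, where the shares were 7.48% and 5.56%.

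The sort was checked on markers of heart muscle cells and of other cell types. All 12 of the 12 cardiomyocyte markers were at least 2-fold higher in GFP+ than in GFP- cells under both treatments. They summed to 22212 CPM in CTR GFP+ and 18619.7 CPM in RA GFP+ cells, led by the myosin gene MYH6, and to 1078 CPM in CTR GFP- and 569.8 CPM in RA GFP- cells, led by TNNT2, and none was at 0 reads. NKX2-5, whose reporter defined the sort, is 1 of the 12 and so is no independent check. With RA 1 of the 12 reached 10 CPM in GFP+ cells alone and could only be higher there. Of all genes that reached 10 CPM in at least 1 library of the pair, 12.7% were at least 2-fold higher in CTR and 10.5% with RA. The 8 fibroblast markers summed to 32119 CPM in CTR GFP- and 61658 CPM in RA GFP- cells, and to 3967 and 15173 CPM in the GFP+ cells of the same treatments. COL3A1 led this list in all 4 libraries. Under each treatment 7 of its 8 genes were at least 2-fold lower in GFP+ cells, against 13.8% (CTR) and 13% (RA) of all genes. The exception, PDGFRA, was higher in GFP+ cells, at 1.51 (1.37 to 1.68) in CTR and 2.13 (2.05 to 2.22) with RA. In the GFP+ cells 7 of the 7 fibroblast markers that reached 10 CPM were at least 2-fold higher with RA than in CTR. In the GFP- cells 5 of 8 were. Of all genes at that level 4.45% were in GFP+ and 5.42% in GFP- cells.

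The 8 endothelial markers summed to 339.7 CPM in CTR GFP- and 349 CPM in RA GFP- cells, against 19.996 and 21.8 CPM in GFP+ cells, with KDR leading throughout and VWF and ESAM at 0 in CTR GFP+. Endoderm markers, 11 of 12 matched, summed to 778 CPM in RA GFP- cells, led by AFP at 465 CPM. They reached 96.5 CPM in CTR GFP-, 44.1 CPM in RA GFP+ and 13.3 CPM in CTR GFP+ cells, with APOA2 and FOXA2 at 0 in both CTR libraries and HNF4A and CDX2 also at 0 in CTR GFP+. Genes of this list went in opposite directions: the RA to CTR ratio in GFP- cells was 156 (92.8 to 285) for AFP, and for TTR, which made up 73.0 CPM of the CTR GFP- sum, it was 0.160 (0.136 to 0.187). The 12 neural and pigment markers summed to 790.3 CPM in CTR GFP- cells, led by PMEL at 444 CPM, and to 180.1 CPM in RA GFP-, 138 CPM in RA GFP+ and 115 CPM in CTR GFP+ cells. Against the sums of this list, MITF was higher in GFP+ than in GFP- cells, at 2.73 (2.27 to 3.33) in CTR and 4.63 (4.09 to 5.26) with RA, and STMN2 was higher with RA in GFP- cells at 4.32 (3.45 to 5.48). SOX1 and SIX6 were at 0 in RA GFP+ cells. The 12 skeletal muscle markers summed to 466 CPM in CTR GFP+, 211 CPM in RA GFP+, 46.9 CPM in CTR GFP- and 36.9 CPM in RA GFP- cells, and CKM, which heart muscle also uses, led both GFP+ libraries. TNNT3 of this list was lower in GFP+ than in GFP- cells with RA, at 0.304 (0.251 to 0.367). MYF5 was at 0 in all but the RA GFP- library, MYOD1 and MYH8 were at 0 in CTR GFP+, and MYH2 was at 0 in CTR GFP-. The 10 proliferation markers summed to 84.8 CPM in CTR GFP+, 137 CPM in RA GFP+, 227 CPM in CTR GFP- and 299.7 CPM in RA GFP- cells. The part of each of these lists in the levels of the glycolysis and uptake genes was not tested. In RNA from a sorted population, fewer cells of a type and less RNA per cell cannot be told apart, and this holds for every ratio below.

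**Figure D1:**
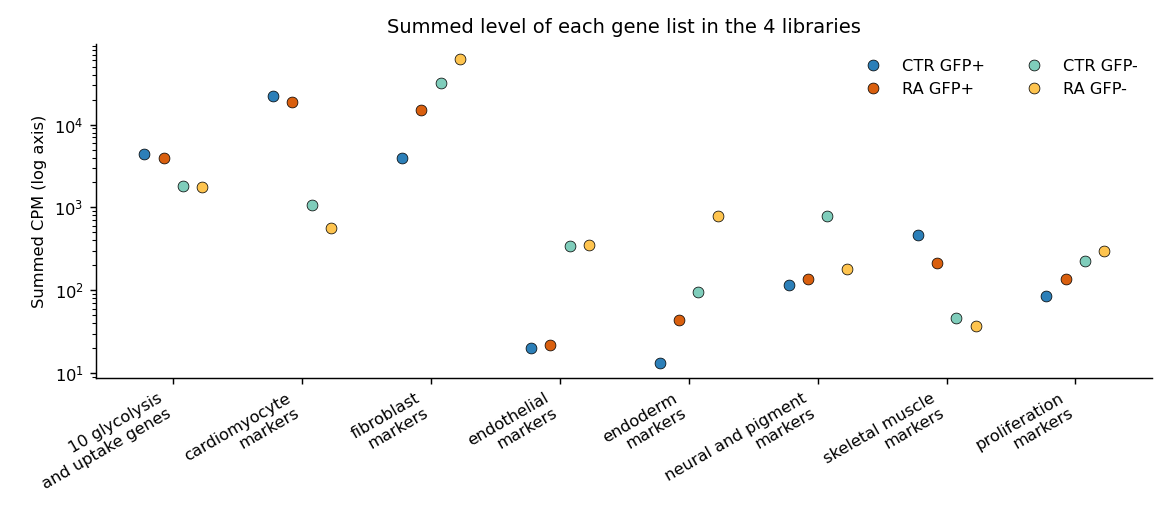
Summed TMM-scaled CPM (vertical log axis) of the 10 glycolysis and uptake genes and of 7 marker lists; each point is 1 library, coloured by treatment and fraction. The 10 genes sum to 4419 and 4003 CPM in GFP+ cells and to 1807 and 1754 CPM in GFP- cells, while cardiomyocyte markers lie higher in GFP+ and fibroblast, endothelial and endoderm markers higher in GFP- cells.

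The plot of summed levels sets the 10 genes beside these lists. Their order over the libraries followed the cardiomyocyte markers in that both GFP+ libraries lay above both GFP- libraries. The span was smaller: the cardiomyocyte sum in CTR GFP+ cells was far above its CTR GFP- value, whereas the sums of the 10 genes lay within a factor of 3.

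The comparison of GFP+ with GFP- cells asks how glucose genes differ between the cardiac fraction and the other cells under the same treatment. SLC2A4, PFKP, LDHA, HK1, PKM and PFKM were each at least 2-fold higher in CTR GFP+ than in CTR GFP- cells, with ratios from 2.72 to 9.34. Differences were counted for genes that reached 10 CPM in at least 1 library of the pair, which 9 of the 10 genes passed in CTR, PDK4 being the exception. Of these 9 genes, 6 were at least 2-fold higher in GFP+ cells, as were 12.7% of the 11806 genes that passed the same filter. None of the 9 was at least 2-fold lower, against 13.8% of those genes. SLC2A4 passed only through GFP+ cells, so it had to be higher in them. Over all 10 genes the median difference in log2(CPM + 1), the logarithm to base 2 after adding 1 CPM, was 1.49. Over the 9 that passed the filter it was 1.54, and over all genes past the filter 0.08. A value of 1 on this scale is a doubling.

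With RA, SLC2A4, PFKP, HK1, PKM, PFKM, HK2 and LDHA were at least 2-fold higher in GFP+ than in GFP- cells, and PDK4 was at least 2-fold lower. All 10 genes passed the filter there. The 7 higher genes compare with 10.5% of 11850 genes past the filter, and the 1 lower gene with 13%. The median difference over the 10 genes was 1.35, against 0.02 over all genes past the filter. PDK4 passed only through RA GFP- cells and SLC2A4 only through GFP+ cells, so each had to differ toward the fraction in which it passed.

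The comparison of RA with CTR within a fraction asks what the treatment of days 4 to 7 left in the cells weeks later, and here 8 of the 10 genes differed by less than between the fractions, SLC2A1 and PDK4 being the exceptions. In GFP+ cells 9 of the 10 passed the filter, again without PDK4. Of these, 0 were at least 2-fold higher with RA, against 4.45% of 11186 genes, and 0 were at least 2-fold lower, against 1.86%. The median over the 10 genes was -0.15 and over the 9 past the filter -0.21, while all genes past the filter had a median of 0.02. Of the 9, 8 had a lower CPM with RA, as did 5342 of the 11186 genes. In GFP- cells 9 passed the filter, with SLC2A4 left out. Of these, 1 gene, PDK4, was at least 2-fold higher with RA, against 5.42% of 11606 genes, and 0 were at least 2-fold lower, against 3.58%. PDK4 passed only through RA GFP- cells, so it had to be higher with RA. The medians were -0.11 over the 10 genes, -0.07 over the 9 that passed the filter and 0.08 over all genes past the filter. At a threshold of 1.5-fold, 2 of the genes, SLC2A1 and HK2, were lower with RA in GFP- cells, against 9.25% of the 11606 genes.

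**Figure D2:**
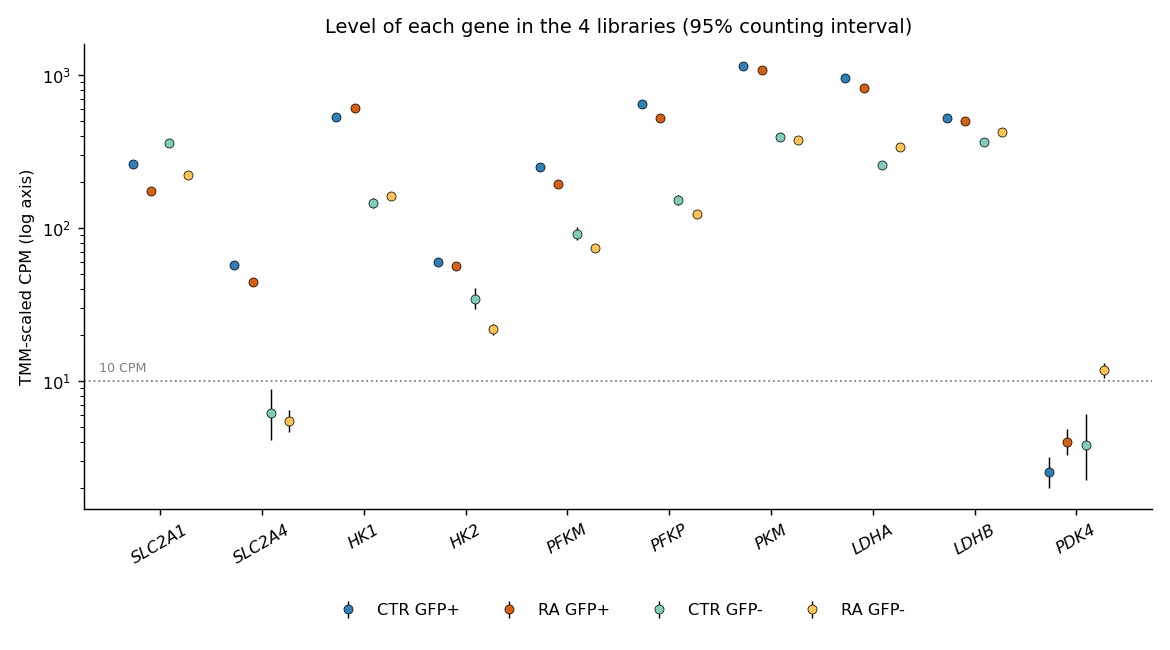
TMM-scaled CPM (vertical log axis) of each gene in the 4 libraries; points are single libraries and bars exact Poisson 95% intervals, and the dotted line marks 10 CPM. PKM is highest in GFP+ cells at 1144 and 1076 CPM, SLC2A1 is highest in CTR GFP- cells at 358 CPM, and PDK4 passes 10 CPM only in RA GFP- cells at 11.8 CPM.

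**Figure D3:**
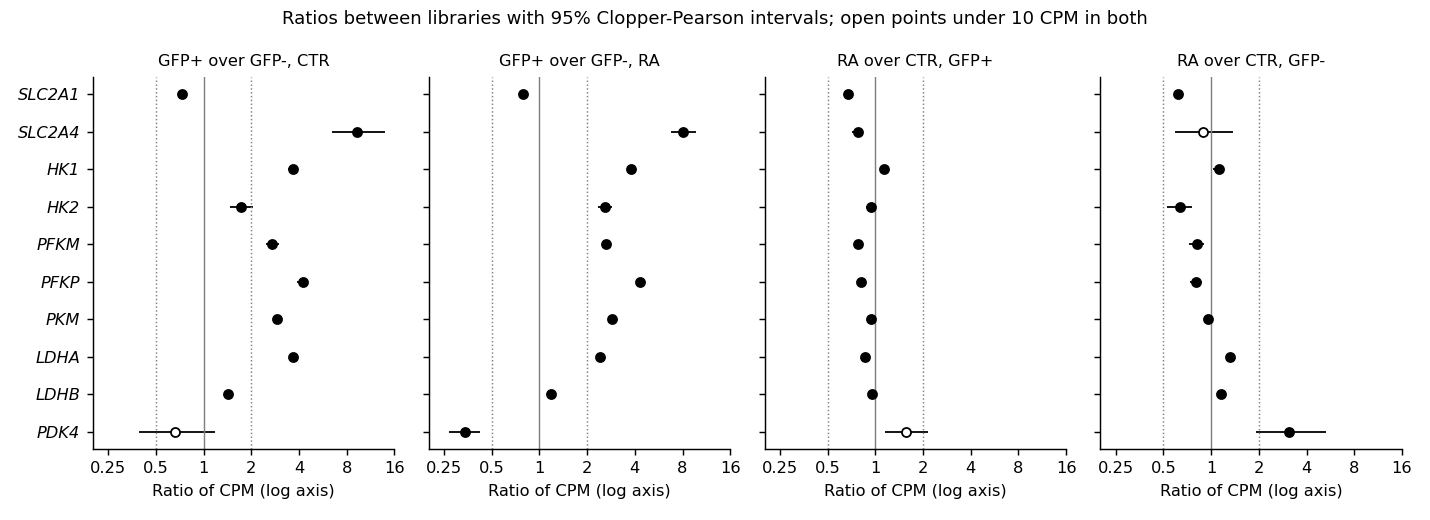
Ratio of CPM (horizontal log axis) of each gene in the 4 comparisons of libraries, with Clopper-Pearson 95% intervals; dotted lines mark 2-fold, and open points had under 10 CPM in both libraries. GFP+ over GFP- ratios reach 9.34 for SLC2A4 in CTR, whereas RA over CTR ratios lie between 0.619 for SLC2A1 and 3.08 for PDK4, both in GFP- cells.

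The plots of levels and of ratios show the same data on the scale of libraries and of comparisons. For 8 of the 10 genes, SLC2A1 and PDK4 being the exceptions, both GFP+ libraries lay above both GFP- libraries. Of all genes past the 10 CPM filter, 6442 of 11806 were higher in GFP+ than in GFP- cells in CTR, and 6107 of 11850 with RA. The share of all genes with both GFP+ libraries above both GFP- libraries was not counted. The widest range over the 4 libraries, in log2(CPM + 1), was that of SLC2A4 at 3.18, followed by PFKP at 2.38 and HK1 at 2.06. LDHB had the narrowest range, 0.51.

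Glucose uptake comes first in the pathway. SLC2A1 (ENSG00000117394, chr1:43391024-43424564, minus strand) encodes GLUT1, the transporter of basal glucose uptake that most dividing and fetal cells use. Positions here are on GRCh37 with the GENCODE annotation. In GFP+ cells SLC2A1 stood at 262 CPM (256 to 268) in CTR and 176 CPM (171 to 181) with RA. In GFP- cells SLC2A1 stood at 358 CPM (341 to 376) in CTR and 222 CPM (216 to 227) with RA. CTR GFP- cells thus had the highest level and RA GFP+ cells the lowest, and no interval overlapped another. SLC2A1 and PDK4 were the genes of the 10 with the lower CPM in the GFP+ fraction of each treatment. Its ratio of GFP+ to GFP- was 0.731 (0.693 to 0.771) in CTR and 0.792 (0.762 to 0.824) with RA. RA cells had less of it than CTR cells in each fraction, with a ratio of 0.671 (0.647 to 0.696) in GFP+ and 0.619 (0.586 to 0.654) in GFP- cells. In GFP+ cells 5.61% of the genes past the filter had a lower RA difference, and in GFP- cells 6.51%.

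SLC2A4 (ENSG00000181856, chr17:7185037-7191576, plus strand) encodes GLUT4, the transporter that insulin and contraction bring to the surface of muscle and fat cells. In GFP+ cells SLC2A4 had 1653 reads in CTR, or 57.7 CPM (54.9 to 60.5), and 1191 reads with RA, or 44.5 CPM (42.0 to 47.1). In GFP- cells SLC2A4 had 29 reads in CTR, or 6.18 CPM (4.14 to 8.87), and 141 reads with RA, or 5.49 CPM (4.63 to 6.48). The GFP+ libraries were high and the GFP- libraries under 10 CPM, with overlapping intervals between the GFP- libraries alone. The GFP+ to GFP- ratio was the largest among the 10 genes under each treatment, 9.34 (6.48 to 13.99) in CTR and 8.10 (6.80 to 9.72) with RA. RA over CTR was 0.772 (0.716 to 0.832) in GFP+ cells, where the interval lay below 1. In GFP- cells it was 0.890 (0.593 to 1.38), so that no difference was detectable at that depth. Adipocyte markers, the defining genes of another GLUT4-rich cell type, stayed under 10 CPM in sum: the 6 genes summed to 3.07 CPM in CTR GFP+, 4.60 CPM in RA GFP+, 2.77 CPM in CTR GFP- and 6.27 CPM in RA GFP- cells, with ADIPOQ, LEP and CIDEC at 0 in both CTR libraries. In RA GFP- cells this sum lay above the 5.49 CPM of SLC2A4. The part of adipocytes in the SLC2A4 level was not tested.

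Within a library the reads of SLC2A1 and SLC2A4 can be set against each other without any scaling between libraries. SLC2A1 had 4.54 (4.30 to 4.79) times the reads of SLC2A4 in CTR GFP+ cells and 3.94 (3.70 to 4.20) times in RA GFP+ cells. In CTR GFP- cells the factor was 58.0 (40.2 to 86.8), and in RA GFP- cells 40.3 (34.1 to 48.0). Relative to SLC2A1, SLC2A4 was thus 12.8 (8.82 to 18.5) times as high in GFP+ as in GFP- cells in CTR, and 10.2 (8.55 to 12.2) times with RA. SLC2A1 nevertheless had more reads than SLC2A4 in all 4 libraries. Levels of different genes were compared per kilobase of exon, because a longer transcript gives more reads. On that scale SLC2A1 stood at 39.6 CPM per kilobase in CTR GFP+ cells and SLC2A4 at 14.4, and in CTR GFP- cells at 54.1 and 1.55.

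Among 8 transporters compared as shares of their summed CPM per kilobase, SLC2A3, the high-affinity GLUT3, held the largest share in 3 libraries. SLC2A1 held 26.9% in CTR GFP+, 22.7% in RA GFP+, 36.3% in RA GFP- and 57.2% in CTR GFP- cells, the last being the library it led. SLC2A3 held 51.0%, 52.1%, 36.8% and 23.1% in the same order, and SLC2A4 9.82%, 9.52%, 1.49% and 1.63%. With the length of the canonical or the longest transcript in place of all exons, SLC2A1 led RA GFP- cells as well. In CPM, SLC2A3 was 3.42 (3.18 to 3.69) times as high in GFP+ as in GFP- cells in CTR and 1.80 (1.74 to 1.86) times with RA, opposite in side to SLC2A1. Of the 11 other transporters listed, 6 passed the 10 CPM filter in CTR, where 2 were at least 2-fold higher in GFP+ cells and SLC2A6, a lysosomal transporter, was at least 2-fold lower at 0.143 (0.117 to 0.174). With RA 1 of 6 was at least 2-fold higher, SLC2A11 at 2.26 (1.97 to 2.60), and 1 at least 2-fold lower, SLC2A6 at 0.259 (0.216 to 0.309). Of all genes past the filter 12.7% were at least 2-fold higher and 13.8% lower in CTR, and 10.5% and 13% with RA, near the counts with RA. SLC2A6 reached 10 CPM in GFP- cells alone under each treatment, so it could only be lower in GFP+ cells. The medians of this list in log2(CPM + 1), over genes with at least 4 reads in the pair, were 0.34 in CTR and -0.16 with RA. Those of all genes were 0.19 and -0.01. SLC2A13, a transporter of myo-inositol, was at least 2-fold higher with RA in each fraction, 2.05 (1.76 to 2.39) in GFP+ and 2.36 (1.79 to 3.15) in GFP- cells. SLC2A6 was at least 2-fold lower with RA in GFP- cells, at 0.479. In GFP+ cells SLC2A13 reached 10 CPM with RA alone and could only be higher there. Of all genes past the filter 4.45% were at least 2-fold higher and 1.86% lower with RA in GFP+ cells, and 5.42% and 3.58% in GFP- cells.

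Hexokinases add phosphate to glucose and so hold it in the cell. HK1 (ENSG00000156515, chr10:71029740-71161640, plus strand) encodes the form found in most tissues, and HK2 (ENSG00000159399, chr2:75061254-75120486, plus strand) the form prominent in insulin-responsive muscle, fat and many tumours. In GFP+ cells HK1 stood at 531 CPM (523 to 539.6) in CTR and 607 CPM (598 to 616) with RA. In GFP- cells HK1 stood at 145 CPM (134 to 156) in CTR and 162 CPM (157 to 167) with RA. Both GFP+ libraries were high and both GFP- libraries low, and in each fraction RA had the higher level, by a ratio of 1.14 (1.12 to 1.17) in GFP+ and 1.11 (1.03 to 1.21) in GFP- cells. HK1 and PDK4 were the genes of the 10 with more CPM after RA in each fraction. The ratio of GFP+ to GFP- was 3.66 (3.39 to 3.96) in CTR and 3.76 (3.63 to 3.89) with RA.

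HK2 was far lower. In GFP+ cells HK2 stood at 59.9 CPM (57.1 to 62.8) in CTR and 56.4 CPM (53.6 to 59.3) with RA. In GFP- cells HK2 stood at 34.5 CPM (29.4 to 40.2) in CTR and 21.8 CPM (20.02 to 23.7) with RA. The GFP+ intervals overlapped each other, and the GFP- intervals lay below them and apart. In GFP+ cells the RA ratio of 0.942 (0.879 to 1.01) included 1. When the libraries were thinned to the reads of the smallest, the difference in log2(CPM + 1) moved from -0.08 to 0.12, so that its direction was not settled at this depth. In GFP- cells the ratio was 0.631 (0.529 to 0.757), with the interval below 1. The step between fractions was 1.74 (1.48 to 2.05) in CTR, under 2-fold, and 2.59 (2.35 to 2.86) with RA, over 2-fold. The ratio of the RA ratios, GFP+ over GFP-, was 1.49 (1.24 to 1.80) for HK2, with a normal interval on the log scale from the 4 counts, and 1.03 (0.943 to 1.12) for HK1.

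HK1 had 8.87 (8.44 to 9.33) times the reads of HK2 in CTR GFP+ and 10.8 (10.2 to 11.3) times in RA GFP+ cells. In GFP- cells the factor was 4.20 (3.54 to 5.02) in CTR and 7.42 (6.79 to 8.11) with RA. HK1 thus led in every library, least in CTR GFP- cells and most in RA GFP+ cells. RA cells had a larger HK1 to HK2 ratio than CTR cells, by a factor of 1.21 (1.13 to 1.30) in GFP+ and 1.76 (1.45 to 2.14) in GFP- cells. Per kilobase, HK1 made up 83.5% and HK2 10.9% of 5 hexokinase genes in CTR GFP+ cells, against 69.9% and 19.3% in CTR GFP- cells. With RA HK1 held 86.0% in GFP+ and 79.7% in GFP- cells. HK1 led this family whichever length was used. HK2 has 1 named processed pseudogene, to which at most 32 reads were counted in a library, and reads that fit a gene and a copy equally well were left out by the authors.

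The promoters of HK2 are shown because the HK2 level was lower with RA than in CTR in GFP- cells. SLC2A1, PFKM and PFKP were lower there as well, and their promoters are not shown, so the choice of HK2 is an example only. Promoter windows from RefSeq on GRCh38.p14, from 250 bases before to 50 after a start, were found for 9 of the 10 genes, with 26 starts. SLC2A4 had no entry. They were searched on both strands for ACGTG, the core of the hypoxia response element, CACGTG, the E-box bound by MYC and MLXIPL, GGGCGG, the GC box, and AGGTCA, a core motif of nuclear receptors. Each CACGTG holds ACGTG on both strands. Of all 35116 promoters, 21.4% held ACGTG, 7.26% CACGTG, 45.0% GGGCGG and 13.8% AGGTCA. Among the 26 starts, ACGTG was in 6, those of HK2, PFKM, PFKP and LDHA, CACGTG in 2, of HK2 and LDHA, GGGCGG in 16, of all 9 genes, and AGGTCA in 6, of HK1, PFKM and PFKP. The upstream HK2 start, chr2:74833877-74834176 on the plus strand, held 2 ACGTG matches, 0 CACGTG and 4 GGGCGG, and the downstream start, chr2:74834920-74835219 on the plus strand, 4 ACGTG, 2 CACGTG and 2 GGGCGG. Capitals mark ACGTG and GGGCGG or their complements, and a match is a description of the letters only.
HK2 upstream start: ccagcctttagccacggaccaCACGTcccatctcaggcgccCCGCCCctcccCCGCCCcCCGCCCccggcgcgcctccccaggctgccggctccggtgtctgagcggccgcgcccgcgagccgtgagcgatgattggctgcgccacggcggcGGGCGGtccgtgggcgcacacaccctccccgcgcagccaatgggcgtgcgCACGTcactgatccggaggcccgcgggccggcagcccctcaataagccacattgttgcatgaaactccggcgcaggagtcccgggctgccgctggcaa
HK2 downstream start: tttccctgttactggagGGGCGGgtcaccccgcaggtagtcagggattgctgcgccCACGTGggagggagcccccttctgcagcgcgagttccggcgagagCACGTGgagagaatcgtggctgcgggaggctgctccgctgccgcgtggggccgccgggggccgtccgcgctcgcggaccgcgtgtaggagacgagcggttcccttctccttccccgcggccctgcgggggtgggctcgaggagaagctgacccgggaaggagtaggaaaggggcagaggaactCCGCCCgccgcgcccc

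Phosphofructokinase catalyses the committed step of glycolysis. PFKM (ENSG00000152556, chr12:48498922-48540187, plus strand) encodes the muscle form, and PFKP (ENSG00000067057, chr10:3108525-3179910, plus strand) the platelet form, which many tissues use. In GFP+ cells PFKM stood at 249 CPM (243 to 255) in CTR and 193 CPM (188 to 199) with RA. In GFP- cells PFKM stood at 91.6 CPM (83.1 to 101) in CTR and 74.0 CPM (70.7 to 77.4) with RA. The order was CTR GFP+, RA GFP+, CTR GFP- and RA GFP-, with no overlap of intervals. GFP+ over GFP- was 2.72 (2.46 to 3.00) in CTR and 2.62 (2.48 to 2.76) with RA. RA over CTR was 0.778 (0.750 to 0.806) in GFP+ and 0.808 (0.727 to 0.899) in GFP- cells. PFKM shares 516 exon bases with SENP1 on the other strand, which counting without strand leaves out.

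PFKP followed the same order at a higher level. In GFP+ cells PFKP stood at 645 CPM (636 to 654) in CTR and 525 CPM (516 to 534) with RA. In GFP- cells PFKP stood at 153 CPM (142 to 165) in CTR and 123 CPM (118 to 127) with RA. The 4 intervals were again apart, and the step between fractions was the second largest of the 10 genes after SLC2A4, 4.22 (3.91 to 4.55) in CTR and 4.28 (4.12 to 4.45) with RA. With RA the level was lower than in CTR by ratios that nearly coincide in the fractions, 0.814 (0.797 to 0.832) in GFP+ and 0.802 (0.739 to 0.871) in GFP- cells.

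PFKP had 2.59 (2.52 to 2.66) times the reads of PFKM in CTR GFP+ and 2.71 (2.63 to 2.80) times in RA GFP+ cells. In GFP- cells the factors were 1.67 (1.48 to 1.89) in CTR and 1.66 (1.57 to 1.76) with RA. The balance therefore leaned further to PFKP in GFP+ cells, by a factor of 1.55 (1.37 to 1.76) in CTR and 1.64 (1.53 to 1.75) with RA. Between RA and CTR it differed by a factor of 1.05 (1.00 to 1.09) in GFP+ cells, and in GFP- cells by 0.993 (0.870 to 1.13), an interval that includes 1. With the liver form PFKL added, the shares per kilobase were 61.7% PFKP, 25.5% PFKM and 12.7% PFKL in CTR GFP+ cells. In CTR GFP- cells they were 37.8% PFKP, 24.3% PFKM and 37.9% PFKL. PFKP thus led in CTR GFP+ cells and PFKL, narrowly, in CTR GFP- cells, and the muscle form held about the same share in each. With RA PFKP led GFP+ cells at 60.6% and PFKL led GFP- cells at 45.3%. With the longest transcript as length, PFKP led all 4 libraries.

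PKM (ENSG00000067225, chr15:72491370-72524160, minus strand) encodes pyruvate kinase of muscle and most other tissues, which makes pyruvate in the last step of glycolysis. In GFP+ cells PKM stood at 1144 CPM (1132 to 1157) in CTR and 1076 CPM (1064 to 1089) with RA. In GFP- cells PKM stood at 393 CPM (375 to 411) in CTR and 375 CPM (367 to 382) with RA. GFP+ libraries were high, GFP- libraries low, and the GFP- intervals overlapped. Its ratio of GFP+ to GFP- was 2.91 (2.78 to 3.05) in CTR and 2.87 (2.81 to 2.94) with RA, higher than in 94.0% and 94.99% of the genes past the filter. RA over CTR was 0.941 (0.926 to 0.956) in GFP+ cells and 0.955 (0.908 to 1.00) in GFP- cells, where the interval reached 1. PKM held at least 99.8% of pyruvate kinase per kilobase in every library, the rest being PKLR of liver and red cells. Erythroid markers stayed under 10 CPM in sum: the 9 genes summed to 2.48 CPM in CTR GFP+, 1.12 CPM in RA GFP+, 8.09 CPM in CTR GFP- and 1.29 CPM in RA GFP- cells, with HBA1, HBA2 and HBZ at 0 in all 4. PKM gives the splice forms PKM1 and PKM2, which counts per gene do not separate. PKM has 5 named pseudogenes, to which at most 167 reads in sum were counted in a library.

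Lactate dehydrogenase is a tetramer of subunits encoded by LDHA (ENSG00000134333, chr11:18416107-18429972, plus strand), abundant in skeletal muscle and glycolytic cells, and LDHB (ENSG00000111716, chr12:21788276-21910791, minus strand), abundant in heart. In GFP+ cells LDHA stood at 948 CPM (937 to 959.7) in CTR and 822 CPM (811 to 833) with RA. In GFP- cells LDHA stood at 257 CPM (243 to 272) in CTR and 339 CPM (332 to 346) with RA. LDHA was high in both GFP+ libraries, and no interval overlapped another. The treatment ordered the fractions in opposite ways, with CTR above RA in GFP+ cells and RA above CTR in GFP- cells. The RA ratio was 0.867 (0.852 to 0.883) in GFP+ and 1.32 (1.24 to 1.40) in GFP- cells, and the ratio of these ratios was 0.658 (0.618 to 0.701). GFP+ over GFP- was 3.68 (3.48 to 3.90) in CTR and 2.42 (2.36 to 2.49) with RA.

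LDHB varied least of the 10 genes. In GFP+ cells LDHB stood at 520.3 CPM (512 to 529) in CTR and 499 CPM (490.1 to 507) with RA. In GFP- cells LDHB stood at 365 CPM (348 to 382) in CTR and 421 CPM (413 to 429) with RA. The highest library was CTR GFP+ and the lowest CTR GFP-, and no interval overlapped another. GFP+ over GFP- was 1.43 (1.36 to 1.5002) in CTR and 1.18 (1.15 to 1.21) with RA, under 2-fold in each. The RA ratio again lay on opposite sides of 1, 0.958 (0.936 to 0.981) in GFP+ and 1.15 (1.10 to 1.22) in GFP- cells. LDHB shares 997 exon bases with an unnamed gene on its own strand, LDHA has 6 named pseudogenes with at most 572 reads in sum in a library, and LDHB has 3 with at most 65.

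The reads of LDHA and LDHB in the same library crossed over between the fractions. LDHA had 1.82 (1.79 to 1.86) times the reads of LDHB in CTR GFP+ and 1.65 (1.61 to 1.69) times in RA GFP+ cells. In GFP- cells it had 0.706 (0.655 to 0.760) times the reads of LDHB in CTR and 0.805 (0.783 to 0.828) times with RA. LDHA thus had more reads than LDHB in GFP+ and fewer in GFP- cells. From GFP- to GFP+ the balance differed by a factor of 2.58 (2.39 to 2.79) in CTR and 2.05 (1.98 to 2.12) with RA, and these factors do not depend on gene length. RA against CTR gave 0.905 (0.879 to 0.932) in GFP+ and 1.14 (1.05 to 1.23) in GFP- cells, so that the fractions lay closer together with RA than in CTR. Which gene is the more abundant in GFP+ cells does depend on the length. Per kilobase of all exons LDHA to LDHB was 0.902 in CTR GFP+ and 0.816 in RA GFP+ cells, and 0.349 in CTR GFP- and 0.399 in RA GFP- cells. Per kilobase of the canonical transcript the GFP+ values were 1.06 in CTR and 0.959 with RA. LDHB was the more abundant in GFP- cells on every scale tried.

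**Figure D4:**
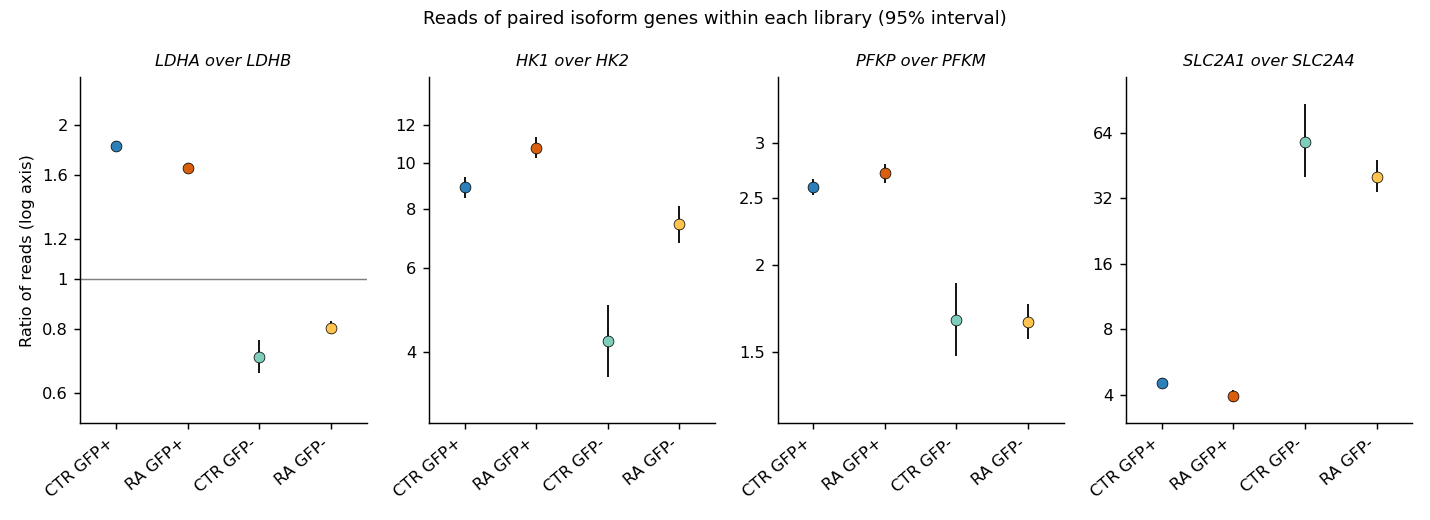
Ratio of the reads of 2 genes of a family within each library (vertical log axes, a panel per pair), with Clopper-Pearson 95% intervals; points are single libraries. LDHA over LDHB lies above 1 in GFP+ cells (1.82 in CTR, 1.65 with RA) and below 1 in GFP- cells (0.706 and 0.805), and SLC2A1 over SLC2A4 is 4.54 in CTR GFP+ against 58.0 in CTR GFP- cells.

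The plot of paired reads shows that in each of the 4 pairs the GFP+ libraries lay on the same side of the GFP- libraries under both treatments. HK1 over HK2, PFKP over PFKM and LDHA over LDHB were larger in GFP+ cells, and SLC2A1 over SLC2A4 was smaller.

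The windows before the LDHA and LDHB starts are shown because these genes encode subunits of the same enzyme and differed in the size of their step between fractions. The upstream LDHA start, chr11:18394313-18394612 on the plus strand, held 5 ACGTG matches, 2 CACGTG and 0 GGGCGG. The downstream LDHA start, chr11:18396101-18396400 on the plus strand, held 0 ACGTG and 4 GGGCGG, and the LDHB start, chr12:21657793-21658092 on the minus strand, 0 ACGTG and 1 GGGCGG. A lack of a match says only that the letters are not in this window, and the counts do not show which LDHA start was used.
LDHA upstream start: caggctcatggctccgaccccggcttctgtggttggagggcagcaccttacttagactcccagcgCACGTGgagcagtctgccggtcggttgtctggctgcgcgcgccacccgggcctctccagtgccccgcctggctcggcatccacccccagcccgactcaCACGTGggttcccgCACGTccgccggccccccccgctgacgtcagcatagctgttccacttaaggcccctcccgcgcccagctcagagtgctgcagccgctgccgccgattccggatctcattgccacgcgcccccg
LDHA downstream start: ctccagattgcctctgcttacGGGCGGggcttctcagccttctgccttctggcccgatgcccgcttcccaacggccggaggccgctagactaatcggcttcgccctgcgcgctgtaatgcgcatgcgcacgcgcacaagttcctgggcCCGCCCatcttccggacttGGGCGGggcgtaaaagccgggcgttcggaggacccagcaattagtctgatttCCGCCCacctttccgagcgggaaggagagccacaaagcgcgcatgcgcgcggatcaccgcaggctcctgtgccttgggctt
LDHB start: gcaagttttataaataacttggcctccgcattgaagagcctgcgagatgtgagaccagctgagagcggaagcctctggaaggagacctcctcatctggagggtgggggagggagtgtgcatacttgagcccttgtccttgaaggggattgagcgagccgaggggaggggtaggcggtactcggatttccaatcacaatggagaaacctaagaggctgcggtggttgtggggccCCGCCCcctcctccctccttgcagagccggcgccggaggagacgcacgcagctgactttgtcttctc

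PDK4 (ENSG00000004799, chr7:95212811-95225828, minus strand) encodes a kinase that switches off pyruvate dehydrogenase and is known to be induced by fasting and by PPAR and glucocorticoid signals. In GFP+ cells PDK4 had 73 reads in CTR, or 2.55 CPM (1.997 to 3.20), and 107 reads with RA, or 4.00 CPM (3.28 to 4.83). In GFP- cells PDK4 had 18 reads in CTR, or 3.83 CPM (2.27 to 6.06), and 303 reads with RA, or 11.8 CPM (10.5 to 13.2). RA GFP- cells were the only high library, and the CTR GFP- interval overlapped those of both GFP+ libraries. RA over CTR in GFP- cells was 3.08 (1.92 to 5.27), where PDK4 reached 10 CPM with RA alone. With RA, GFP- exceeded GFP+ cells by a factor of 2.95 (2.36 to 3.71), while in CTR the GFP+ to GFP- ratio of 0.665 (0.393 to 1.18) rested on 18 reads in GFP- cells and included 1. When the libraries were thinned to the reads of the smallest, the GFP+ to GFP- ratio with RA moved from 0.339 to 0.178 (0.0772 to 0.365), on the same side of 1. In GFP+ cells the RA ratio was 1.57 (1.16 to 2.14) at under 10 CPM in both libraries, and its direction turned when the libraries were thinned to the reads of the smallest, from 0.50 to -0.15 in log2(CPM + 1). The ratio of the RA ratios was 0.510 (0.291 to 0.893).

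Beside PDK4, RA GFP- cells held the most of the endoderm markers, 778 CPM in sum with none at 0 reads. They also held the most of the fibroblast, endothelial, proliferation and adipocyte markers, at 61658, 349, 299.7 and 6.27 CPM in sum. The part of endoderm or of these other cells in the PDK4 level was not tested. Among the 4 PDK genes per kilobase, PDK4 held 1.66% in CTR GFP+, 2.91% in RA GFP+, 11.4% in CTR GFP- and 27.3% in RA GFP- cells. PDK1 led the GFP+ libraries at 57.6% in CTR and 50.5% with RA, and PDK2 the GFP- libraries at 59.3% and 46.4%. With canonical or longest transcripts as length, PDK2 led RA GFP+ cells as well, and in reads PDK1 led all 4 libraries. PDK1, a target of hypoxia signalling, was 11.3 (9.42 to 13.6) times as high in GFP+ as in GFP- cells in CTR and 7.78 (7.21 to 8.40) times with RA, on the other side of 1 from PDK4.

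The promoter of PDK4 is shown as that of the 1 gene of the 10 that passed 2-fold between RA and CTR. Its window, chr7:95596467-95596766 on the minus strand, held 0 ACGTG, 0 AGGTCA and 2 GGGCGG.
PDK4 start: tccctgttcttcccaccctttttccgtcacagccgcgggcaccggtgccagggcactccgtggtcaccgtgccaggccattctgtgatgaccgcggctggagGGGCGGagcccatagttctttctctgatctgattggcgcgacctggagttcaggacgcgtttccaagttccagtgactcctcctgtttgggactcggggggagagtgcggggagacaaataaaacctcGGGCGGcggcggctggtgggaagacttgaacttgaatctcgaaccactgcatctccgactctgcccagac

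The RA differences of the fractions can be set side by side for all 10 genes. Both were below 1 for SLC2A1, SLC2A4, HK2, PFKM, PFKP and PKM, both above 1 for HK1 and PDK4, and on opposite sides for LDHA and LDHB, as also for the glycolytic genes GAPDH and PGK1 and the transporter gene SLC2A3. For HK2 in GFP+ and SLC2A4 in GFP- cells the interval included 1, and the direction turned when the libraries were thinned, to 0.12 and 0.07 in log2(CPM + 1). PDK4 in GFP+ cells also turned on thinning, to -0.15, and the interval of PKM in GFP- cells included 1. Other scalings put the intervals of HK2 in GFP+ and PKM in GFP- cells below 1. With library size alone they were 0.896 (0.835 to 0.960) and 0.870 (0.827 to 0.914). This was also so with DESeq2 factors, upper quartile factors and library size without mitochondrial and the most abundant genes. With library size alone in place of TMM, the intervals of HK1 in GFP- cells, 1.01 (0.935 to 1.10), and LDHB in GFP- cells, 1.05 (1.00 to 1.11), included 1 as well. The same held for both with library size without mitochondrial and the most abundant genes, and for HK1 with upper quartile factors, 1.05 (0.965 to 1.14). On thinning the intervals of LDHB and PKM in GFP+ cells also included 1. Only SLC2A1, PFKM, PFKP and LDHA kept every interval apart from 1 in both fractions, under each scaling and when thinned. The interval of the ratio of RA ratios lay apart from 1 for HK2, LDHA, LDHB at 0.830 (0.784 to 0.878), PDK4 and SLC2A1 at 1.08 (1.02 to 1.16). It included 1 for SLC2A4 at 0.868 (0.578 to 1.30), HK1, PFKM at 0.963 (0.862 to 1.08), PFKP at 1.02 (0.933 to 1.10) and PKM at 0.985 (0.935 to 1.04). These intervals cover counting error only, and the share of all genes with such an interval apart from 1 was not counted. Other glycolytic genes, GAPDH, PGK1 and ENO1 among them, also had intervals apart from 1, while that of PFKL included 1.

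In level per kilobase of exon LDHB was the highest of the 10 genes in all 4 libraries, at 174 CPM per kilobase in CTR GFP+, 167 in RA GFP+, 122 in CTR GFP- and 141 in RA GFP- cells. LDHA came next in 3 libraries, at 157 CPM per kilobase in CTR GFP+, 136 in RA GFP+ and 56.3 in RA GFP- cells. In CTR GFP- cells SLC2A1 took that place at 54.1, and LDHA was at 42.7. PKM was the third in each library, from 43.7 CPM per kilobase in RA GFP- to 133 in CTR GFP+ cells. With canonical transcript lengths, PKM led both GFP+ libraries and LDHB both GFP- libraries. PDK4 was the lowest in 3 libraries by either length, and SLC2A4 was the lowest in RA GFP- cells.

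For the 3 genes with the widest range, the genes with the most similar profile over the 4 libraries were sought among 12407 genes with at least 10 CPM in a library, by Euclidean distance of centred log2(CPM + 1). Nearest to SLC2A4 were ADAM11 at 0.04, ANKRD63 at 0.05 and the pseudogene CT75 at 0.14. Nearest to PFKP were FAM162A at 0.03, MYLK3, a kinase of heart muscle, at 0.09 and WNK2 at 0.10. Nearest to HK1 were SEMA4B at 0.14 and RTL5 at 0.14. With 4 libraries many profiles are alike, and the distances describe the levels alone.

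The other genes of the pathway were described by lists, each with its median over the genes with at least 4 reads in either library. On that filter the median of all genes was 0.19 for GFP+ minus GFP- in CTR and -0.01 with RA, and 0.00 for RA minus CTR in GFP+ and 0.16 in GFP- cells. The counts below compare with all genes past the 10 CPM filter, of which 12.7% were at least 2-fold higher and 13.8% lower in GFP+ cells in CTR, 10.5% and 13% with RA, and with RA against CTR 4.45% and 1.86% in GFP+ and 5.42% and 3.58% in GFP- cells. Of 18 other glycolytic enzymes 13 reached 10 CPM, and of these 9 were at least 2-fold higher in GFP+ cells and 0 lower under each treatment, beside 6 and 7 of the 10 genes above. Their median was 1.47 in CTR and 1.13 with RA. ENO3, the muscle enolase, led at 6.71 (5.78 to 7.84) in CTR and 10.4 (9.50 to 11.3) with RA, and the lowest ratios were those of PFKL, 0.865 in CTR, and the glucokinase gene ADPGK, 0.627 with RA. Between RA and CTR 1 of 13 was at least 2-fold higher in GFP+ cells, the aldolase gene ALDOC at 2.47 (2.36 to 2.58), and 0 were in GFP- cells, where PGAM1 reached 1.89 (1.57 to 2.30). The neuronal enolase ENO2 was the lowest in both, 0.758 in GFP+ and 0.526 in GFP- cells, and the medians were -0.08 and 0.13.

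Around pyruvate, 6 of 11 genes of the pyruvate dehydrogenase list were at least 2-fold higher in GFP+ cells in CTR and 3 of 10 with RA, with medians of 1.41 and 0.82 and PDK1 leading each time. The lowest was the phosphatase gene PDP1, at 0.576 and 0.857. Between RA and CTR the extremes were PDP1 at 1.71 and PDK3 at 0.603 in GFP+ cells, and PDHX at 1.39 and PDP2 at 0.394 in GFP- cells. In GFP- cells PDP2 reached 10 CPM in CTR alone, so it could only be lower with RA. Of the lactate and pyruvate transport list 4 of 9 genes were at least 2-fold higher in CTR and 4 of 8 with RA, and 1 was lower each time, with medians of 0.94 and 0.96. SLC16A7, a carrier of pyruvate and lactate, led at 3.61 (2.501 to 5.39) in CTR and 5.30 (4.04 to 7.05) with RA, and EMB, a chaperone of such carriers, was the lowest at 0.265 and 0.304. SLC16A7 reached 10 CPM in GFP+ cells alone and EMB in GFP- cells alone, so each could only differ that way. Of the 4 higher genes, 2 passed through 1 library alone under each treatment. Per kilobase of all exons the transporters SLC16A3 and SLC16A1 held the largest shares of their family, SLC16A3 in GFP+ cells at 49.6% in CTR and 56.2% with RA, and SLC16A1 in GFP- cells at 57.2% and 54.4%. This depends on the length: SLC16A3 led all 4 libraries with canonical transcripts and in reads, and all but CTR GFP- with the longest transcripts.

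Pathways that branch off glycolysis were counted by the same rule. Of 7 pentose phosphate genes 0 were at least 2-fold higher in GFP+ cells, and 2 were at least 2-fold lower in CTR and 1 with RA, the latter near the share of all genes. Their medians were -0.62 in CTR and -0.45 with RA, below those of all genes, and TKT was the lowest at 0.397 (0.374 to 0.422) and 0.454 (0.436 to 0.472). Of 12 glycogen genes past the filter 5 were at least 2-fold higher in CTR and 3 with RA, with medians of 0.61 and 0.43 and the muscle phosphorylase gene PYGM leading at 5.06 (4.32 to 5.96) and 5.17 (4.68 to 5.73). PYGB and GYS1 led their families in all 4 libraries. With RA the branching enzyme gene GBE1 was at 0.492 (0.454 to 0.534) of CTR in GFP+ cells. Of 4 gluconeogenesis genes past the filter 0 were at least 2-fold higher and 1 was at least 2-fold lower in GFP+ cells with RA, PCK2 at 0.360 (0.312 to 0.415), and none passed 2-fold in CTR, with medians of -0.13 in CTR and -0.01 with RA. Of the PFKFB list, which sets the level of a phosphofructokinase activator, 0 of 4 passed 2-fold between the fractions, with medians of -0.21 and 0.06, and PFKFB4 was lower with RA in GFP- cells at 0.456 (0.359 to 0.582). In GFP- cells PFKFB4 reached 10 CPM in CTR alone, so it could only be lower with RA.

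**Figure D5:**
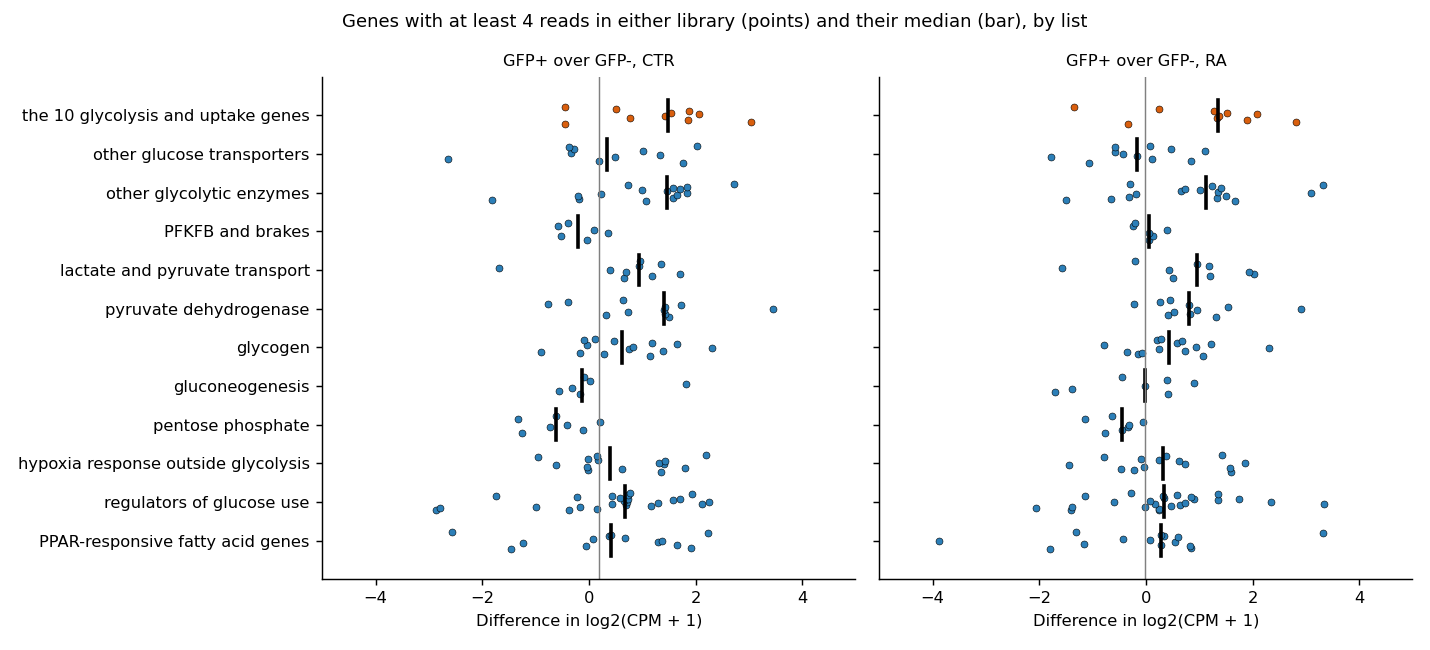
Difference in log2(CPM + 1) between GFP+ and GFP- cells (horizontal axis) of genes with at least 4 reads in either library, by list, in CTR (left) and with RA (right); points are genes, black bars list medians and the grey line the median of all genes. The 10 genes have medians of 1.49 and 1.35 and the other glycolytic enzymes of 1.47 and 1.13, while the pentose phosphate list lies at -0.62 and -0.45.

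The plot of lists shows the 10 genes and the other glycolytic enzymes to the right of the median of all genes under both treatments and the pentose phosphate list to its left. Within the 10 genes SLC2A1 and PDK4 are the points to the left of 0 in each panel.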

How the data were processed

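The authors trimmed paired reads of 75 bases, placed them on a modified hg19 genome with GSNAP, used SAMtools 0.1.18 for sorting and kept unique positions. The deposited values are read counts per Ensembl gene from HTSeq 0.6.1p1, counted by the authors without strand and not normalised. Gene names, positions and exon lengths came from GENCODE v44lift37, which may differ from the Ensembl release the authors counted on, and every value per kilobase rests on these lengths. TXNIP was not analysed here, and a few other genes of the lists and profiles are not reported here.

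Counts were scaled with TMM (edgeR 4.0.16, R 4.3.3) over the 4 libraries. The factors were 1.00 for CTR GFP+, 0.951 for RA GFP+, 1.07 for CTR GFP- and 0.979 for RA GFP-. A count of 0 allows up to 3 reads, which is 0.639 CPM in CTR GFP- and 0.105 CPM in CTR GFP+ cells. No column was left out. The named genes are the 10, the leading gene of each family, the highest and lowest ratio at 10 CPM or more of each list and comparison, and the nearest profiles; others were chosen after their values were seen. A gene that reaches 10 CPM in only 1 library of a pair can only be higher there. Members and lists were chosen with earlier results of these data known.

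Alternatives were library size alone, DESeq2 1.42.0 size factors, upper quartile factors, TMM of each pair, pseudocounts of 0.25 and 5 CPM, library size without mitochondrial genes and the top 10, thresholds of 1.5-fold and 3-fold, other filters, other gene lengths and thinning to 4371101 reads. The canonical length and the alternatives for the ratio of RA ratios were chosen after seeing the data. The procedure was tested on simulated data. Python 3.11.15 with numpy 2.4.6, scipy 1.17.1, pandas 2.3.3 and matplotlib 3.10.9 was used.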

Additional observations from a re-analysis of the deposited data

Results flagged for a closer look

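With TMM scaling the RA differences of LDHA and LDHB had opposite directions in the GFP+ and GFP- cells, with every interval on its own side of 1. For LDHB this depends on scaling and depth. With library size alone, or without mitochondrial and the most abundant genes, its ratio in GFP- cells was 1.05 with an interval that included 1. On thinning its interval in GFP+ cells included 1, while LDHA kept its sides. Nor was this particular to them. In the lists of transport, glycolysis, pyruvate and branching pathways, SLC2A3, SLC2A8, ADPGK, GAPDH, PGK1, DLAT and UGP2 were likewise below 1 in GFP+ and above 1 in GFP- cells. In these lists TKT went the other way. Genes of the hypoxia, regulator, PPAR-responsive and retinoid lists also lay on opposite sides, in both directions, among them NDRG1 like LDHA and HIF1A like TKT. The RA difference in log2(CPM + 1) of GFP+ cells minus that of GFP- cells was -0.602 for LDHA and -0.2686 for LDHB. Each rests on 4 libraries, 1 per condition, and whether the fractions differ in this was not tested.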

How the results depend on the processing

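No paired analysis was made, since no result comes from a test. The GFP+ and GFP- libraries of each treatment were compared within that treatment. Of 320 alternative values for the 40 differences of the 10 genes, 253 stayed within the counting interval, 66 moved outside it and 1 reversed: PDK4 between RA and CTR in GFP+ cells became -0.15 when all libraries were thinned to the reads of the smallest. HK2 there (0.12) and SLC2A4 in GFP- cells (0.07), whose intervals included 1, also changed sign on thinning. The alternatives changed 3 of 80 counts of the 10 genes by more than 1.5 times. At 1.5-fold 2 genes were lower with RA in GFP- cells, against 9.25% of all genes past the filter; at 3-fold 3 genes were higher and 0 lower in GFP+ than in GFP- cells with RA, against 5.11% and 7.71%. For list medians 795 of 800 values were stable. The endothelial median of GFP+ minus GFP- in CTR became -4.60 with a pseudocount of 0.25 CPM and -2.23 with 5 CPM. The endoderm median of RA minus CTR in GFP+ cells became 1.14 with a pseudocount of 0.25 CPM and 2.54 over genes with at least 10 CPM, and that of GFP+ minus GFP- with RA became -1.97 with 5 CPM. LDHA to LDHB per kilobase passed 1 in RA GFP+ cells with the longest transcript (1.13) and in reads (1.65), and in CTR GFP+ cells with the canonical transcript (1.06), the longest (1.25) and in reads (1.82). Of the other ratios of paired genes per kilobase, which scale with the length by construction, none reversed. For the ratios of RA ratios 45 of 50 values were stable, and the number of families led by 1 gene kept within 1.5 times. The cause was not tested for any of these. Library size alone shifted the median of all genes by -0.13 for RA minus CTR in GFP- cells and by -0.10 for GFP+ minus GFP- in CTR, and library size without mitochondrial and the most abundant genes by -0.13 for the former. Depth limits SLC2A4 and PDK4 in CTR GFP- cells, with 29 and 18 reads.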

Other observations

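Genes that govern glucose use from outside the pathway were counted in the same way, beside all genes past the filter, of which 12.7% were at least 2-fold higher and 13.8% lower in GFP+ cells in CTR, and 10.5% and 13% with RA. Of 24 regulators, 22 passed the 10 CPM filter in CTR, where 7 were at least 2-fold higher in GFP+ than in GFP- cells and 3 at least 2-fold lower, and 21 with RA, where 5 were at least 2-fold higher and 3 lower to that degree, the lower ones near the share of all genes in each. The nuclear receptor gene ESRRG led in CTR at 5.13 (3.81 to 7.06), and the coactivator gene PPARGC1A with RA at 11.7 (9.88 to 13.8). EPAS1, a hypoxia-inducible factor gene, was the lowest in CTR at 0.126 (0.108 to 0.147), and MYC with RA at 0.213 (0.178 to 0.253). With RA, PPARGC1A reached 10 CPM in GFP+ cells alone and MYC in GFP- cells alone, so each could only differ that way. In CTR 1 of the 7 higher and 1 of the 3 lower regulators passed through 1 library alone, and with RA 2 of the 5 and 1 of the 3. With RA, EPAS1 stood at 3.41 (2.99 to 3.90) of CTR in GFP+ cells and FOXO1, a factor known to induce PDK4, at 2.76 (2.08 to 3.72) in GFP- cells, while PPARGC1B was the lowest in each fraction, at 0.441 and 0.530. In GFP+ cells PPARGC1B reached 10 CPM in CTR alone, so it could only be lower with RA. Medians of GFP+ minus GFP- were 0.68 in CTR and 0.33 with RA.

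Of the hypoxia list outside glycolysis, 5 of 12 genes were at least 2-fold higher in GFP+ cells in CTR and 0 lower, led by MXI1 at 4.75 (3.83 to 5.97), and with RA 4 were at least 2-fold higher and 1 at least 2-fold lower, from EGLN3 at 3.72 (3.41 to 4.05) to NDRG1 at 0.362 (0.334 to 0.392). Medians were 0.40 and 0.32, and 0 of 12 passed 2-fold between RA and CTR in either fraction, where 4.45% of all genes were higher and 1.86% lower in GFP+ and 5.42% and 3.58% in GFP- cells. Of the PPAR-responsive fatty acid genes, 4 of 11 were at least 2-fold higher with RA in GFP- cells, the library pair in which PDK4 was higher, among them CPT1A at 3.43 (2.496 to 4.84), and 1 was at least 2-fold lower, CPT1B at 0.440 (0.327 to 0.599). Of the 4, 3 reached 10 CPM with RA alone, as PDK4 did, and could only be higher there, and CPT1B reached it in CTR alone. The part of PPAR signals or of FOXO1 in the PDK4 level was not tested. Between fractions FABP3 led this list at 4.79 (4.13 to 5.59) in CTR and 10.5 (9.58 to 11.5) with RA, with medians of 0.41 and 0.29.

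Of the retinoid response genes that reached 10 CPM, 3 of 5 were at least 2-fold higher with RA in GFP+ cells. This compares with 4.45% of all genes past the filter, and NR2F2 led at 19.8 (18.4 to 21.3). In GFP- cells 4 of 6 were, against 5.42% of all genes past the filter, led by DHRS3 at 10.1 (5.07 to 23.5). Of these 4, DHRS3 and RARB reached 10 CPM with RA alone and could only be higher there. The lowest were STRA6 at 0.851 (0.803 to 0.902) in GFP+ and NR2F1 at 0.596 (0.537 to 0.663) in GFP- cells.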
